A study of Mus musculus with 2 samples.

Results

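The genes described here encode the machinery that brings secreted and membrane proteins into the endoplasmic reticulum (ER), cuts off their signal peptide and attaches the first sugar tree. They are 31 genes, chosen by name, of the 27998 in the gene table, and fall into 6 complexes. Their levels were measured in mouse pancreatic islet cells with droplet-based sequencing of single cells, in 1 library per diet. The first library came from 5 C57BL/6J wild-type mice, a common inbred strain, given a 60% high-fat diet (HFD) for 6 weeks from weaning. The second came from 4 wild-type mice of the same strain on regular chow over the same weeks. All islets were picked by hand and spent a night in culture before dissociation, and the labels do not assign cells to single mice. Since mice were pooled and each diet has 1 library, diet was compared without a test, and each statement on diet describes these 2 libraries.

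A signal peptide that emerges from a ribosome is bound by the signal recognition particle, which slows translation and docks the ribosome on the signal recognition particle receptor at the ER membrane. The chain then passes through the Sec61 channel, helped by Sec62, Sec63, TRAM and the translocon-associated protein complex (TRAP). Signal peptidase removes the signal peptide, and oligosaccharyltransferase moves a preassembled sugar tree from a lipid carrier onto asparagines of the chain. In beta cells the main cargo is preproinsulin, which loses its signal peptide on this route and carries no N-linked sugar, while many receptors, convertases and granule proteins do. TRAP is known to help substrates with weak signal peptides, preproinsulin among them.

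Cells were sorted into types by their hormone UMIs (unique molecular identifiers, each counting 1 captured RNA molecule), none of which belongs to the 31 genes. Beta cells had at least 20% of UMIs from Ins1 and Ins2 (insulin), and among the other cells alpha cells had at least 5% from Gcg (glucagon), delta cells at least 1% from Sst (somatostatin) and PP cells at least 15% from Ppy (pancreatic polypeptide). This gave 2968 HFD and 4372 chow beta cells, 374 and 740 alpha cells, 370 and 447 delta cells, and 154 and 199 PP cells. The marker genes fixed for each type other than its gate hormone were detected in both libraries in the type they mark. Delta cells also held much RNA of PP markers, with a summed level of 100447 counts per 1000000 UMIs in HFD and 111398 in chow cells, against 6702 and 8249 for the delta markers, and RNA of beta markers at 55023 and 71279. Alpha cells likewise held PP markers at 43434 in HFD and 44218 in chow cells, against 38561 and 38454 for the alpha markers. Levels are given as counts per 1000000 UMIs of a type, leaving out the 5 hormone genes of the gates (CPM), and intervals are 95% and cover counting error only. Beta cells had a median of 7684.5 such UMIs in the HFD library and 6984 in the chow library. A UMI of the heat shock genes Hspa1a or Hspa1b was found in 4.25% of HFD and 33.1% of chow beta cells, mitochondrial RNA took a median of 3.30% and 3.10%, and the summed level of 7 acinar markers, genes of another ER-rich cell, was 10.4 CPM in HFD and 37.9 CPM in chow beta cells. Markers of ductal cells summed to 341 CPM in HFD and 654 CPM in chow beta cells and those of alpha cells to 1042 and 1579 CPM. Higher in HFD beta cells were the sums of markers of PP cells (4944 CPM in HFD, 3293 in chow), macrophages (91.6 and 58.4), endothelial cells (48.5 and 36.6), delta cells (141 and 112), Schwann cells (20.1 and 13.4) and mesenchymal cells (14.3 and 2.74). The beta markers themselves summed to 136622 CPM in HFD and 166769 CPM in chow beta cells. The part of these other cells' RNA and of mitochondrial share in the results was not tested. For depth, values with beta cells thinned to equal numbers of UMIs are given below. Insulin made up 1.86% of UMIs in HFD and 2.42% in chow alpha cells, and whether this was free RNA was not tested. The libraries share 45 barcodes, 0.991% of the HFD and 0.691% of the chow barcodes.

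In beta cells the measured genes of this machinery had lower relative levels in the HFD library, for 4 of them depending on the scaling. Summed over all members, beta cells held 8419 CPM in the HFD library and 12320 CPM in the chow library. To compare genes, the log2 ratio between HFD and chow is given relative to its median over all measured genes of a type, which was 0.22 in beta, 0.04 in alpha, 0.06 in delta and 0.10 in PP cells. The summed machinery then stood at -0.77 (interval -0.78 to -0.76) in beta cells. A gene had to have at least 50 summed counts, which 30 of the 31 passed in each type, and counted as lower or higher past a relative log2 ratio of 0.5 either way. In beta cells 17 of 30 members were lower and 0 higher, where 12.1% of all 12247 measured genes were lower and 6.12% higher. The members ranged from -1.33 to -0.04 with a median of -0.58. They lay below the all-gene median in 30 of 30 cases. With CPM of all UMIs and no median subtracted 26 of 30 lay below 0, and Srp68, Sec63, Sec62 and Stt3b lay above it. In that setting 29.9% of all genes lay below 0, with a median of 0.19, and 11 members were lower against a background of 6.39%. Among all genes of at least 20 CPM, 14.8% were lower, and among 1330 genes of at least 100 CPM with a known coding sequence, the range in which most members lie, 28.1% were lower, with a median of -0.27.

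Alpha cells gave other values. Their summed level was 9110 CPM in the HFD library and 8226 CPM in the chow library, a relative log2 ratio of 0.11 (0.09 to 0.13). There 23 of the 30 members had a ratio above the all-gene median, 7 had a lower one, and 0 were past the threshold in either direction, beside 7.38% of 8914 genes lower and 6.69% higher. Delta cells lay between, with 9092 CPM in HFD and 11166 CPM in chow cells (-0.35, interval -0.37 to -0.33). Of their members 28 of 30 lay below the median and 4 were lower, with a background of 4.47% lower and 7.34% higher over 8611 genes. PP cells held 8929 CPM in the HFD and 10004 CPM in the chow library (-0.26, -0.29 to -0.23), with 24 of 30 below and 2 lower, beside 7.35% lower and 11.5% higher over 5701 genes. Among genes of at least 100 CPM with a known coding sequence, 3.22% were lower in alpha, 2.58% in delta and 5.95% in PP cells. The medians of these genes were -0.02, -0.09 and -0.10. The difference between the types in their response could not be tested with 1 library per diet.

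**Figure D1:**
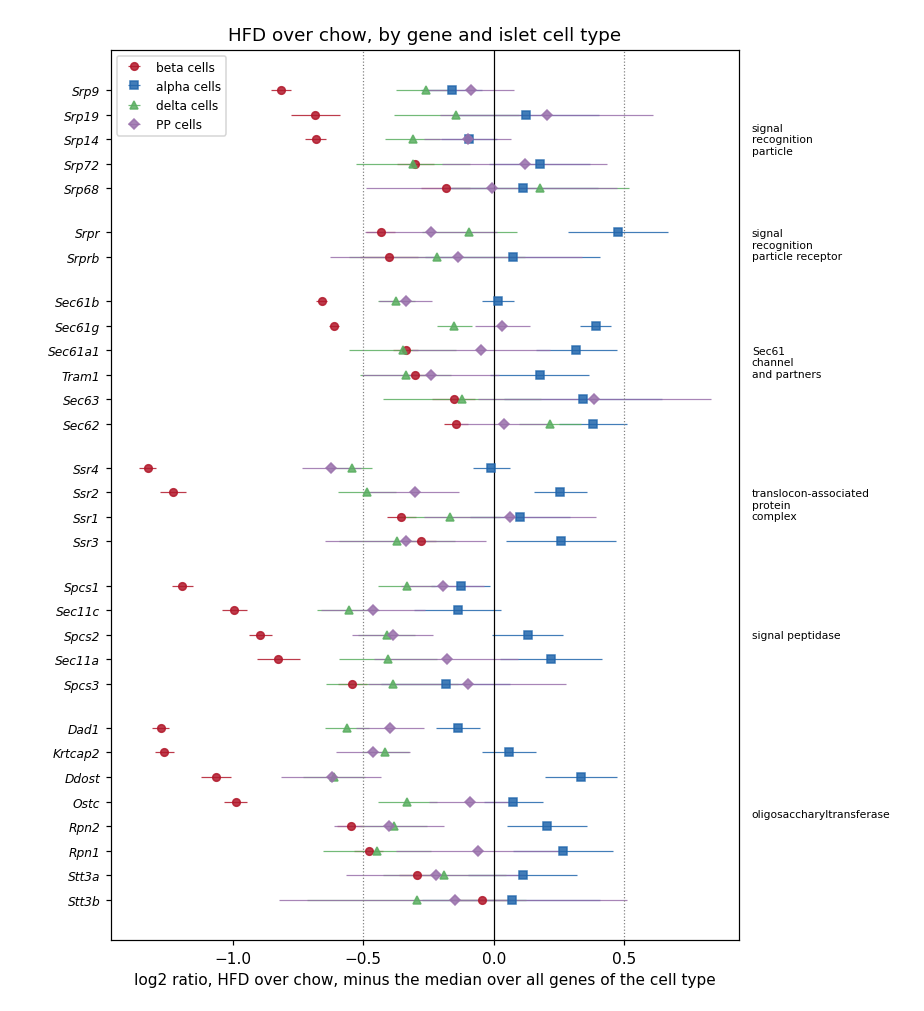
Relative log2 ratio of HFD over chow (x axis) for each of the 30 measured genes, grouped by complex, in beta, alpha, delta and PP cells; bars are 95% counting intervals and the lines mark 0 and the thresholds at 0.5 either way. Beta cells lie left of 0, from -1.33 to -0.04, although Srp68, Sec63, Sec62 and Stt3b turn above 0 with CPM of all UMIs, and alpha cells lie near or right of it.

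Counted per cell rather than per total, a beta cell carried on average 65.4 UMIs of these genes in the HFD library and 89.4 in the chow library, although HFD beta cells held more UMIs outside the hormone genes (7765 per cell, against 7252 in chow beta cells). In alpha cells the average was 73.8 UMIs in HFD and 52.6 in chow cells, with 8098 and 6392 UMIs per cell outside the hormone genes. Delta cells had 77.2 in the HFD and 77.5 in the chow library, with 8496 and 6945 such UMIs. PP cells had 78.5 and 83.6, with 8788 and 8359. HFD cells were thus deeper in each type. As a share of these UMIs, the members made up 0.911% in HFD and 0.823% in chow alpha cells. The shares were 0.909% and 1.12% in delta, 0.893% and 1.00% in PP, and 0.842% and 1.23% in beta cells.

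The lower level in HFD beta cells was spread over the whole population and was not carried by a few cells. With every beta cell thinned to 2000 UMIs outside the hormone genes, the machinery made up a median of 0.8% of UMIs per cell in the HFD library, with quartiles of 0.6 and 1.0% and extremes of 0.15 and 2.25% (2954 cells, 14 shallower ones left out). In the chow library the median was 1.15%, with quartiles of 0.9 and 1.45% and extremes of 0.25 and 2.95% (4337 cells, 35 left out). The upper quartile of HFD cells thus lay below the chow median. Without thinning the medians were 0.783% in HFD and 1.14% in chow cells. Insulin itself took similar shares of all UMIs, 53.4% in HFD and 52.5% in chow beta cells.

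**Figure D2:**
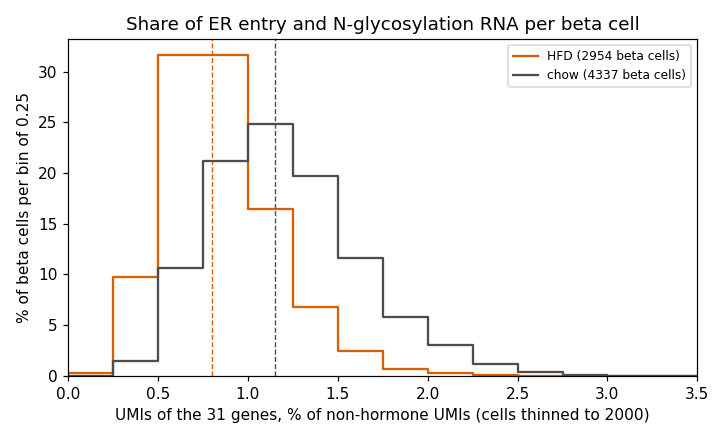
Share of the 31 genes in the UMIs of each beta cell after thinning to 2000 UMIs outside the hormone genes (x axis, percent), as the percent of beta cells of each library (y axis). The HFD distribution, with a median of 0.8%, is shifted as a whole to lower shares than the chow distribution, with a median of 1.15%.

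Beta cells with heat shock RNA were far more frequent in the chow library, and leaving out every beta cell with an Hspa1a or Hspa1b UMI left 15 of 30 members lower, with a median of -0.51 and a background of 8.89%. The summed ratios were then -0.88 for TRAP, -0.80 for signal peptidase, -0.84 for oligosaccharyltransferase and -0.30 for the receptor of the signal recognition particle. Insulin content moves with the share of other genes in a cell, so beta cells were also compared within bands of insulin share. From the band of 20 to 40% insulin up to that of at least 60%, 12, 15, 18 and 18 of 30 members were lower, with medians of -0.43, -0.55, -0.61 and -0.56. Of all genes measured in these bands 8.83%, 12.5%, 13.6% and 11.4% were lower.

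The signal recognition particle is an RNA with 6 proteins, whose summed level was 921 CPM in HFD and 1246 CPM in chow beta cells (relative log2 ratio -0.66, interval -0.68 to -0.63). Srp9 and Srp14, which form the pair that slows translation, stood at 347 CPM in HFD and 523 in chow cells (-0.81) and at 321 and 442 CPM (-0.68). Srp19, which binds the RNA during assembly, had 60.4 CPM in HFD and 83.1 in chow cells (-0.68). The large partners Srp68 and Srp72, which join each other on the RNA, were nearer the all-gene median. Srp68 had 70.0 CPM in HFD and 68.2 in chow beta cells, and its relative ratio of -0.18 (-0.28 to -0.09) turned to 0.01 with CPM of all UMIs and with cells thinned to 4000 UMIs. Srp72 stood at -0.30 with 123 CPM in HFD and 130 in chow cells. In alpha cells the sum was 931 CPM in HFD and 944 in chow cells (-0.06), while the median of the members was 0.11, so sum and median differ in sign there. Delta cells (-0.26) and PP cells (-0.05) lay closer to 0 than beta cells.

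Srp54a encodes the GTPase that holds the signal peptide, and it was counted 0 times in both libraries over all types. Its near-identical copy Srp54b, which is not among the 31 genes, had 6180 counts in the HFD and 9528 in the chow library over all types. No source used here says how reads were assigned between such copies. Srp54a is therefore uncertain and is left out of the ratios. Srp54b stood at 198 CPM in HFD and 234 CPM in chow beta cells, a relative log2 ratio of -0.46. The receptor has a GTPase subunit, Srpr, and a membrane anchor, Srprb. Srpr had 189 CPM in HFD and 218 CPM in chow beta cells (-0.43), and Srprb had 46.3 and 52.4 CPM (-0.40). In alpha cells Srpr had the highest ratio of all members, 0.48, with 143 CPM in HFD and 99.8 CPM in chow cells. The receptor as a whole stood at -0.43 (-0.48 to -0.38) in beta cells and 0.37 (0.21 to 0.54) in alpha cells.

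The Sec61 channel and its partners had a summed level of 3412 CPM in HFD and 4259 CPM in chow beta cells (-0.54, -0.55 to -0.53). Sec61b and Sec61g, the small subunits at the side of the pore, were both lower. Sec61b had 1211 CPM in HFD and 1639 in chow cells (-0.66), and Sec61g had 1292 and 1693 CPM (-0.61). Sec61a1, the pore itself, differed less, with 259 CPM in HFD and 281 CPM in chow cells (-0.34). Tram1, a membrane protein that helps some signal peptides into the channel, stood at -0.30. Sec63, which recruits the chaperone BiP to the channel, had 90.7 CPM in HFD and 86.5 in chow beta cells, with a relative ratio of -0.15 (-0.24 to -0.07). It turned to 0.04 with CPM of all UMIs and to 0.03 in beta cells of at least 60% insulin. Sec62, its partner, had 287 CPM in HFD and 272 in chow cells, and its ratio of -0.14 (-0.19 to -0.10) turned to 0.05 with CPM of all UMIs. Sec62 and Sec63 are known to serve short secretory proteins that enter after translation and some with weak signals. In alpha cells 6 of 6 genes of the channel group lay above the all-gene median, Sec61g highest at 0.39 (1443 CPM in HFD, 1072 in chow), and their sum stood at 0.23 (0.19 to 0.27).

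TRAP has 4 subunits, which split into a pair with low ratios and a pair nearer the all-gene median but still below it. Its sum was 1043 CPM in HFD and 1830 CPM in chow beta cells (-1.03, -1.05 to -1.01), the lowest sum of the 6 complexes as scaled here. By the median of the members signal peptidase was lower (-0.89, against -0.79 for TRAP), and in beta cells of 20 to 40% insulin its sum was too (-0.68, against -0.55). Ssr4 had the lowest ratio of all members as scaled here, with 490 CPM in HFD and 1054 CPM in chow cells (-1.33, -1.36 to -1.29). Under some alternatives Dad1, Krtcap2 or Ssr2 was lower, as in beta cells without an Hspa1a or Hspa1b UMI, where Dad1 stood at -1.13 and Ssr4 at -1.12. Ssr2 had 197 CPM in HFD and 395 CPM in chow cells (-1.23, -1.28 to -1.18). Ssr1, by contrast, had 189 CPM in HFD and 207 in chow cells (-0.35), and Ssr3 had 168 and 174 CPM (-0.28, -0.34 to -0.22). In alpha cells Ssr4 stood at 871 CPM in HFD and 854 CPM in chow cells (-0.01), and Ssr2 at 468 and 382 CPM (0.25). Delta cells had Ssr4 at 732 CPM in HFD and 1027 in chow cells (-0.54), and PP cells at 729 and 1050 CPM (-0.62). Ssr4 was thus past the threshold in 3 of the 4 types.

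Signal peptidase is built from the catalytic subunits Sec11a and Sec11c, of which a given enzyme holds either, and from Spcs1, Spcs2 and Spcs3. It was the complex in which all members, 5 of 5, were lower in HFD beta cells. The sum was 1034 CPM in HFD and 1711 CPM in chow beta cells (-0.95, -0.97 to -0.93). Spcs1, a small accessory subunit, had 289 CPM in HFD and 567 CPM in chow cells (-1.19, -1.23 to -1.15). Sec11c had 223 CPM in HFD and 380 in chow cells (-0.99), Spcs2 had 263 and 420 CPM (-0.89), and Sec11a had 77.0 and 117 CPM (-0.83). Spcs3, a core subunit needed for cleavage, had 182 CPM in HFD and 227 CPM in chow cells and lay just inside the threshold at -0.54. Just outside it lay Rpn1, at -0.48. The balance of the catalytic subunits moved little: Sec11c made up 74.3% of Sec11a and Sec11c counts in HFD beta cells (exact Clopper-Pearson interval 73.3 to 75.4%) and 76.5% in chow beta cells (75.8 to 77.1%). In alpha cells its share was 54.7% (51.3 to 58.1%) in the HFD and 60.8% (58.0 to 63.4%) in the chow library.

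Oligosaccharyltransferase exists in a form with Stt3a as catalytic subunit, which works at the channel while the chain enters, and a form with Stt3b, which can act on sites left over afterwards. Rpn1, Rpn2, Ddost and Dad1 are shared, and Ostc and Krtcap2 tie the Stt3a form to the channel. The sum was 1774 CPM in HFD and 3004 CPM in chow beta cells, a relative ratio of -0.98. Dad1 had 446 CPM in HFD and 926 CPM in chow cells (-1.28, -1.31 to -1.24), and Krtcap2 had 352 and 723 CPM (-1.26, -1.30 to -1.22). Ddost followed with 148 CPM in HFD and 265 CPM in chow cells (-1.06), and Ostc with 249 and 424 CPM (-0.99). Rpn2 had 205 CPM in HFD and 257 in chow cells (-0.55), and Rpn1 had 182 and 217 CPM. The catalytic subunits were nearest the all-gene median. Stt3a had 134 CPM in HFD and 141 CPM in chow cells (-0.29). Stt3b had 58.2 CPM in HFD and 51.4 CPM in chow cells, and its ratio of -0.04 (-0.15 to 0.06) was the highest of all members and turned to 0.15 with CPM of all UMIs and to 0.21 in beta cells of 20 to 40% insulin. Stt3b made up 30.3% of Stt3a and Stt3b counts in HFD beta cells (28.9 to 31.7%) and 26.8% in chow beta cells (25.7 to 27.9%). In alpha cells this share was 27.5% (23.4 to 31.9%) in the HFD and 28.1% (24.6 to 31.7%) in the chow library, with overlapping intervals.

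Outside beta cells the same genes of the enzyme had other ratios. In alpha cells Ddost had 261 CPM in HFD and 201 CPM in chow cells (0.33), Krtcap2 had 425 and 398 CPM (0.06), and Dad1 had 600 and 642 CPM (-0.14). In delta cells Ddost had 315 CPM in HFD and 463 CPM in chow cells (-0.61) and Dad1 had 611 and 869 CPM (-0.56), both past the threshold. PP cells had Ddost at 260 CPM in HFD and 375 CPM in chow cells (-0.62).

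Many of the genes with the lowest ratios in beta cells have short coding sequences. Length was looked at after the values had been seen, with the longest coding sequence of each gene in the GENCODE vM21 basic annotation. All 31 members and 94.5% of the measured genes had one. Of 13 measured members under 600 coding bases, 12 were lower (median -0.81), and Ssr3, with 555 bases like Ssr2, was not. Of 7 members from 600 to below 1200 bases 3 were lower (median -0.40), of 9 from 1200 to below 2400 bases 2 were lower (median -0.34), and Stt3b, with 2469 bases, was not. Ddost, with 1323 bases, stood lowest among the longer members.

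The same tilt ran through all genes of beta cells. Of all measured genes under 600 coding bases 32.1% were lower, against 18.5%, 5.86% and 1.66% in the next length groups, with a median ratio of -0.30 in the shortest and 0.15 in the longest group. Among genes of at least 100 CPM the shares were 41.9%, 31.6%, 11.2% and 1.30%, with medians of -0.43, -0.30, -0.05 and 0.09. The median of the 13 members under 600 bases, -0.81, stands beside -0.43 for all genes of that length and at least 100 CPM. The longer groups hold few members. Across genes the Spearman rank correlation of the ratio with coding length was 0.42 over 11576 genes and 0.66 over the 30 members in beta cells. In alpha cells it was 0.16 over 8700 genes, 0.31 over 1211 genes of at least 100 CPM and 0.50 over the 30 members, so the members' ratios tilted with length there too. Delta cells had 0.24 over all genes, 0.06 over genes of at least 100 CPM and 0.26 over the members. PP cells had 0.28, 0.02 and 0.18. These are given as a description of genes that share their libraries. In alpha cells the shares lower were 9.06%, 8.23%, 6.56% and 5.38%. The part of length, of RNA quality and of 3' end capture in the ratios was not tested.

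**Figure D3:**
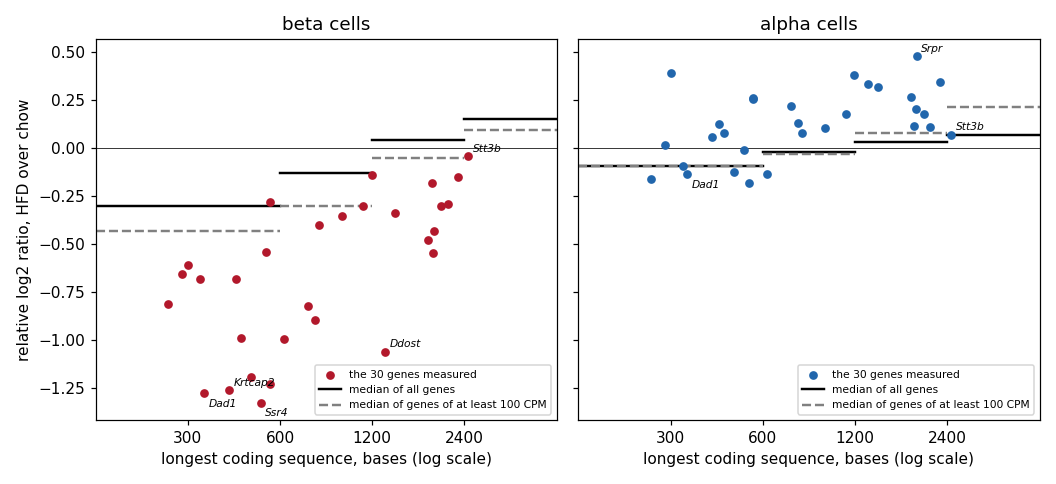
Relative log2 ratio of HFD over chow (y axis) against the length of the longest coding sequence in bases (x axis, log scale) for the 30 measured genes, in beta and alpha cells. Lines mark the median of all genes and of genes of at least 100 CPM in each length group, which climb in beta cells from -0.30 and -0.43 under 600 bases to 0.15 and 0.09 from 2400 bases on.

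Several genes of ER entry are known targets of the unfolded protein response in mammals, in which the factors ATF6 and XBP1 bind ER stress elements near the start site. Windows from 250 bases before to 50 bases after the start were read from RefSeq (GRCm38.p6) for the 23 members that have one, and searched on both strands. The full ER stress element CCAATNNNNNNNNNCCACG was in 0 of the 23 and in 0.137% of the 27025 genes with a window. The second form, ATTGGNCCACG, was in 1 of 23, Krtcap2, and in 0.044% of all. TGACGTGG, the core of an XBP1 element, was in 0 of 23 and in 0.714% of all. The short parts CCAAT and CCACG, which the longer elements contain, were in 14 and 15 of 23 (60.9% and 65.2%), against 41.1% and 35.5% of all genes. A match is a description of letters and not a bound site. The stretch of Krtcap2 lies at chr3:89246481-89246509 on the plus strand, with the element in capitals. This element begins 17 bases after the start and not before it.
Krtcap2: gggacacggATTGGACCACGgacggggcg

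For 3 genes with low beta cell ratios and the gene with the highest, the 250 bases before the start are given 5' to 3' on the gene's strand, with CCAAT and CCACG on either strand in capitals. Ssr4 (chrX:73786773-73787022, plus) and Dad1 (chr14:54253930-54254179, minus) had ratios of -1.33 and -1.28, and Spcs1 (chr14:31001667-31001916, minus) had -1.19. Stt3b (chr9:115310469-115310718, minus) had the highest ratio, -0.04. Ssr4 holds 0 of either motif there. Dad1 holds CCAAT 2 times on opposite strands, as overlapping matches in the single stretch CCAATTGG. Spcs1 holds CCACG 3 times, and Stt3b holds each motif 1 time.
Ssr4: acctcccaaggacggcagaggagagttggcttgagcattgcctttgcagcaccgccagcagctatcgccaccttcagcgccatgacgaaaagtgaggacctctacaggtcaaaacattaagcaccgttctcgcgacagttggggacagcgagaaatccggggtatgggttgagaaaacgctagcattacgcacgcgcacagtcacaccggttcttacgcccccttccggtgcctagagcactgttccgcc
Dad1: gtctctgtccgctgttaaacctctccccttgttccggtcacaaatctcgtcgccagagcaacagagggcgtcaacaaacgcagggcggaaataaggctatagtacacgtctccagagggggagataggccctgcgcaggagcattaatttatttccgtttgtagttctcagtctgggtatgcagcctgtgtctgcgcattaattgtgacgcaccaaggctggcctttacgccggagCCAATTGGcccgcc
Spcs1: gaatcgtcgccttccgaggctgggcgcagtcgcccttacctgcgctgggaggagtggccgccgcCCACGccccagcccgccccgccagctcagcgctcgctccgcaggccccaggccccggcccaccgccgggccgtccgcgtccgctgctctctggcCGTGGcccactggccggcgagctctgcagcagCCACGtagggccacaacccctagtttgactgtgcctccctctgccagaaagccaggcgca
Stt3b: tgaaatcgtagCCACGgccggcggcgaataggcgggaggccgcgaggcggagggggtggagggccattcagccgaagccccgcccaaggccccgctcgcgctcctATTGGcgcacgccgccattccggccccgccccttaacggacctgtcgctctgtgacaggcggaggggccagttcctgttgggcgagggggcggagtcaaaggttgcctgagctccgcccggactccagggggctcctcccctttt

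Genes of the same pathway outside the 31 were taken from a fixed list of 54: further subunits, the ER membrane complex, tail anchoring, and the enzymes that build and trim the sugar tree. In beta cells 45 lay below the all-gene median and 9 above, 15 were lower and 0 higher, and the median was -0.25. Of all measured genes of beta cells 12.1% were lower and 6.12% higher, and of those of at least 20 CPM 14.8% were lower. The lowest was Alg3, a mannosyltransferase of the sugar tree, with 9.33 CPM in HFD and 17.1 CPM in chow cells (-1.10). Emc7, a subunit of the ER membrane complex, had 80.4 CPM in HFD and 122 in chow cells (-0.82), and Calr, the lectin chaperone calreticulin, had 357 and 533 CPM (-0.80). At the upper end stood Tram2, a relative of Tram1, with 4.17 CPM in HFD and 2.78 in chow cells (0.36, -0.07 to 0.80). Emc1, another subunit of the ER membrane complex, had 46.4 CPM in HFD and 34.8 CPM in chow cells (0.19). In alpha cells 24 of 49 measured genes of this list lay below the median, with 4 lower and 3 higher. These counts stood near the background of alpha cells, 7.38% lower and 6.69% higher.

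A list of 22 genes of the unfolded protein response includes Hspa5 and Calr from the pathway list. Of the 22 genes 21 lay below the all-gene median in beta cells and 10 were lower, with a median of -0.46. The background was 12.1% lower over all measured genes and 14.8% over those of at least 20 CPM. Over genes of at least 100 CPM with a known coding sequence it was 28.1%, with a median of -0.27. Genes of the list lie above and below that level. Sdf2l1, a co-chaperone of the ER, and Manf, a factor secreted from it, had the lowest ratios, -1.48 (86.3 CPM in HFD, 207 in chow) and -1.40 (280 CPM in HFD, 636 in chow). Hspa5, which encodes BiP, stood at -0.48 with 434 CPM in HFD and 520 in chow cells. Xbp1 had 217 CPM in HFD and 216 CPM in chow cells (-0.22), and Atf6 was the 1 gene above the median (0.04). In alpha cells 16 of 22 lay above, with a median of 0.19 and 2 higher, beside a background of 6.69% higher.

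Whether beta cells hold more of this machinery than other endocrine cells was tested on 8 sums, 4 types in each of the 2 libraries, with edgeR's quasi-likelihood test and library as a term. Calls are at a Benjamini-Hochberg adjusted p under 0.05 over 11382 genes, 30 members among them. Against alpha cells 9 members were higher and 1 lower in beta cells, where 22.8% of all genes were higher and 23.3% lower. Against delta cells 10 were higher and 9 lower (24.6% and 25.3% of all genes), and against PP cells 6 higher and 6 lower (20.1% and 21% of all genes). For delta and PP cells the members were divided between both directions much as all genes were, and for alpha cells all but 1 of the calls were higher in beta cells. The 2 libraries differ in diet, so the spread behind each p includes the effect of diet on a type.

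Spcs3 stood out, with edgeR log2 fold changes of 1.29 ± 0.15 (SE) over alpha, 1.16 ± 0.15 over delta and 1.10 ± 0.16 over PP cells (edgeR adjusted p = 2.31e-06, 7.86e-06 and 4.63e-05). It was higher in both libraries in each comparison, by 1.12 in the HFD and 1.44 in the chow library over alpha cells. Tram1 followed at 1.03 ± 0.16 over alpha cells (edgeR adjusted p = 4.88e-05), 0.59 over delta and 0.48 over PP cells. Sec61a1 (0.42, 0.98 and 0.48), Ssr1 (0.56, 0.37 and 0.67) and Rpn1 (0.56, 0.56 and 0.54) were the other members higher in beta cells in 3 of 3 comparisons. The 3 comparisons share the same beta cell sums, and the share of all genes called in 3 of 3 was not counted. Over alpha cells the differences of Sec61a1, Ssr1 and Rpn1 were smaller in the HFD library. They were 0.11 in HFD and 0.73 in chow for Sec61a1, 0.34 and 0.77 for Ssr1, and 0.21 and 0.92 for Rpn1. Tram1 was at 0.81 over alpha cells in the HFD and 1.25 in the chow library. Ssr2 was the 1 gene lower in 3 of 3, at -0.74 ± 0.23 against alpha cells (edgeR adjusted p = 0.0135), but this rested on the HFD library: the difference to alpha cells was -1.48 in HFD and -0.03 in chow cells. The remaining largest changes over alpha cells were Sec11c (0.72 ± 0.17, edgeR adjusted p = 0.0027), Sec63 (0.70 ± 0.16, 0.00152) and Ssr3 (0.62 ± 0.16, 0.0053). These too were smaller in the HFD library, with 0.30 in HFD and 1.12 in chow for Sec11c, 0.46 and 0.93 for Sec63, and 0.37 and 0.88 for Ssr3. Sec11c was higher in beta than in alpha cells and lower than in delta cells (-0.46).

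Besides Ssr2, the genes Ddost, Sec11a, Sec62 and Spcs2 were lower in beta than in delta and PP cells. Ddost stood at -1.02 ± 0.22 and -0.90 ± 0.23 and Sec11a at -0.73 ± 0.19 and -0.91 ± 0.19. Sec62 stood at -0.53 ± 0.15 and -0.76 ± 0.15 and Spcs2 at -0.54 ± 0.18 and -0.70 ± 0.18. Stt3b was higher in beta than in delta and PP cells (0.69 ± 0.15 and 0.74 ± 0.18). In 0 of 3 comparisons were Dad1, Krtcap2, Sec61b, Sec61g, Spcs1, Srp72, Srp9, Srprb and Ssr4 called, which leaves 9 genes without a call and 14, besides Sec11c, with a call in some comparisons.

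**Figure D4:**
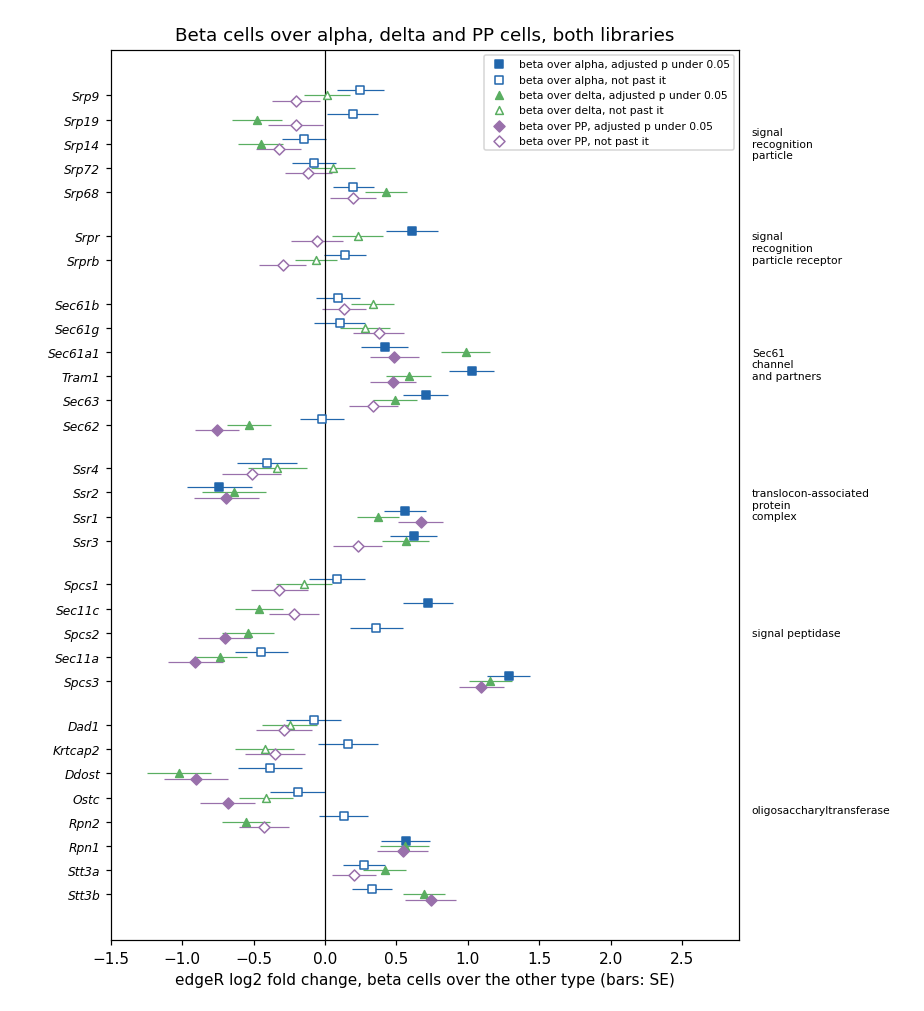
edgeR log2 fold change of beta cells over alpha, delta and PP cells (x axis) for the 30 tested genes by complex, with SE as bars; filled markers are adjusted p under 0.05. Spcs3, Tram1, Sec61a1, Ssr1 and Rpn1 have filled markers right of 0 in 3 of 3 comparisons, and Ssr2 left of 0.

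The order of the types differed between the libraries. In the HFD library 12 of 30 members were higher in beta than in alpha cells, with a median log2 difference of -0.18, and in the chow library 29 of 30 were, with a median of 0.52. Against delta cells 14 of 30 were higher in beta cells in the HFD library (median -0.20) and 17 of 30 in the chow library (0.14). Against PP cells the counts were 12 in HFD (-0.43) and 17 in chow (0.08). Of all tested genes 48.9% in HFD and 49.8% in chow were higher in beta than in alpha cells. The shares were 48.8% and 50.4% against delta cells and 47.7% and 49.4% against PP cells, with medians from -0.05 to 0.01. In summed CPM beta cells were lowest in the HFD library, at 8419, and the others lay between 8929 and 9110. In the chow library beta cells were highest, at 12320, followed by delta (11166), PP (10004) and alpha cells (8226). These are values of single libraries without a test.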

How the data were processed

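The authors deposited raw UMI counts per gene and barcode, whole numbers without normalization, for 1 library per diet of 10x Genomics 3' v2 chemistry. Cell Ranger 2.1.0 is named in the submitters' processing notes. Genome build, annotation and cell filter: not given in the sources used here. The HFD library held 4539 barcodes and 68544729 UMIs (median 13911), the chow library 6509 and 89292222 (12414). Barcodes under 500 genes or over 10% mitochondrial UMIs were left out (145 HFD, 122 chow). Scrublet (scanpy 1.11.5) marked 0.0228% and 0.047% by its own threshold, which had not worked, so scores in the top 5% were removed (194 HFD, 278 chow), leaving 4200 HFD and 6109 chow cells. Of these, 334 HFD and 351 chow cells met no gate and were not used.

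Counts were summed per type and library with 0.5 counts added for ratios. Poisson intervals and exact Clopper-Pearson intervals cover counting error only. Diet has no replicates and no test. Types were tested with edgeR 4.0.16 (R 4.3.3, TMM, filterByExpr, hormone genes of the gates left out first). The test was also run on simulated counts without a library or diet effect. That run cannot show how the test behaves with 2 libraries that differ in diet. The SE is the fold change divided by the square root of F. DESeq2 1.42.0 was an alternative. Each type's sums come from 2 libraries that differ in diet, and all types share these libraries. Genes named are the 5 lowest and 5 highest diet ratios in beta cells, the 5 largest changes each way called against alpha cells, the subunit pairs, and the 3 lowest and highest of the pathway list, of which 1 is not reported here; all others are given by complex. Members, lists and tests were chosen with earlier results of these data known, and coding length and promoters were looked at after the ratios. Sequences are from RefSeq.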

Additional observations from a re-analysis of the deposited data

Results flagged for a closer look

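The ratio of HFD over chow had opposite signs in beta and alpha cells for the whole machinery and for 4 of its 6 complexes, each with 1 library per diet, so these differences were not tested. Summed over all members, the relative log2 ratio was -0.77 in beta and 0.11 in alpha cells, a difference of -0.88. For TRAP the difference was -1.12 (-1.03 in beta, 0.09 in alpha cells) and for oligosaccharyltransferase -1.04 (-0.98 and 0.06). The signal recognition particle receptor differed by -0.80 (-0.43 in beta, 0.37 in alpha cells) and the Sec61 channel with its partners by -0.77 (-0.54 and 0.23). Beside them, a UMI of Hspa1a or Hspa1b was found in 4.25% of HFD and 33.1% of chow beta cells and in 1.34% of HFD and 13.5% of chow alpha cells. Its part in these differences was not tested. Among all genes of at least 100 CPM with a known coding sequence, the median ratio was -0.27 in beta and -0.02 in alpha cells. Of these genes 28.1% were lower in beta and 3.22% in alpha cells. The part of this difference among all genes was not tested either.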

How the results depend on the processing

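The count of 17 members lower in HFD beta cells became 11 with CPM of all UMIs and no median subtracted, and 6 at a threshold of 1 in place of 0.5, where 2.27% of all genes were lower. At a threshold of 0.3 it was 23, with 21.96% of all genes lower, and under the other alternatives it ranged from 12 to 18. With each cell thinned to 4000 UMIs it was 16, with 11.4% of all genes lower. In each setting all 6 complexes kept a summed ratio below 0. The ratio of the mean member share per beta cell, HFD over chow, stayed between 0.69 and 0.70.

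No paired analysis was possible because each diet has 1 library. For the types the library term serves as block. Without the replicate block the edgeR calls were 0 lower against alpha cells, 5 higher and 3 lower against delta cells, and 3 higher and 2 lower against PP cells. With DESeq2's test 6 were higher against delta cells. Leaving out a library leaves no residual degrees of freedom, so it gave values with no test: of 82 such values of called genes 47 moved by more than their SE and 0 changed sign. The cause was not tested. Depth limits the smaller types, where the interval of Stt3b in PP cells ran from -0.82 to 0.51. Pooled mice, 1 library per diet, overnight culture and hormone RNA in cells of other types limit every comparison of diet.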
